A study of Mus musculus with 80 samples.

Results

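Cytosolic ribosomal proteins are the protein building blocks of the 80S ribosome, and their genes were picked from the deposited expression table by symbol. A gene was taken where its symbol was Rps or Rpl with a number and at most 1 of the endings a, l or x, or where it was Rplp0, Rplp1, Rplp2 or Rpsa. Kinases named Rps6k and symbols marked as pseudogenes were left out. This gave 81 genes of the 23337 in the table. The rule itself uses symbols and no measured value, but it was chosen with earlier results of these data known.

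A ribosome has a small subunit, which reads the message, and a large subunit, which joins amino acids, and most of the proteins in each are needed in equal copies. Nearly all of their messages carry a 5′ terminal oligopyrimidine tract (5′TOP), a C followed by a run of C and T at the very start of the transcript. The nutrient-sensing kinase complex mTORC1 acts through this tract to let the messages onto ribosomes, so that 5′TOP messages are known for entering and leaving the ribosome-bound pool with feeding and growth signals. AgRP neurons of the hypothalamic arcuate nucleus drive feeding and are most active in hunger.

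The study sequenced RNA of collections aimed at mouse AgRP neurons, in 80 libraries from 20 groups. Of these, 33 came from mice with the NPY::hrGFP reporter, whose GFP-positive cells were sorted by flow cytometry from slices of the arcuate nucleus. These comprised 6 ad libitum fed libraries at ZT2 (zeitgeber time, counted in hours from lights on) and 3 at ZT14, 7 and 8 after a fast labelled as effectively 24 h, and 5 and 4 after the same fast with 1 h of refeeding. RiboTag immunoprecipitates of AGRP-Cre;RiboTag mice gave 17, with 3 and 4 ad libitum fed and 5 and 5 fasted at ZT2 and ZT14. In RiboTag mice, Cre switches the Rpl22 allele to one with an HA tag, so that an antibody pulls down tagged ribosomes with the messages on them, and Cre here is driven from Agrp. A further 30 libraries compared AGRP-Cre;BMAL1fx knockouts, which delete the clock gene Arntl (Bmal1) in Cre-expressing cells, with WT;BMAL1fx controls that carry the floxed allele without Cre. Of these, 25 came from mice given leptin or, as the labelled control, PBS, at ZT2 or ZT14 (3 in each group, 4 in the control PBS group at ZT2), and 5 at ZT5 with no treatment given (2 control, 3 knockout). Ages, sexes and pooling of mice are not given in the labels used here, nor is how the cells of the floxed mice were marked for collection. Replicates are not said to be separate mice, so the p-values reflect only how far these libraries scatter, which may be technical variation.

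Depth lay between 5.93 and 34.0 M recovered reads per library. Several facts of whole libraries bear on what follows. Fasted libraries, sorted and RiboTag alike, and those at ZT5 had a profile of their own: the ribosomal RNA precursor Rn45s spanned 1725 to 148448 normalised counts in 25 fasted libraries, 1577 to 4007 in the ZT5 ones and 50805 to 963336 in the other 50. Cebpb ran from 42.5 to 1565 in fasted libraries and from 433 to 630 at ZT5, against 0 to 17.1 in the others, and Alyref from 545 to 2756 and from 1273 to 2173, against 12.3 to 81.8. RiboTag fasted ZT2 replicates 3 and 5 stood apart from the other 3 libraries of their group, and results that rest on them are given with and without them. The library labelled sorted ad libitum ZT2 replicate 4 did not hold whole multiples of a read, and at ZT5 control replicate 1 (Hsd11b2 at 4628) and knockout replicate 3 (Hsd11b2 at 11.2) went against the other libraries of their genotype, in which controls lay at 0 to 19.7 and knockouts at 2092 to 4573. AgRP neuron markers were present in both collections, with summed levels of 200090 to 2184200 in sorted and 30682 to 4295400 in RiboTag libraries. The highest RiboTag sum was that of fasted ZT2 replicate 5, with Agrp at 1488870 and Npy at 2761620. At ad libitum ZT2, Agrp had 4840, 12041 and 20738 in RiboTag and 32495 to 68414 in sorted libraries, without overlap.

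Pyrimidine runs near the annotated starts of these genes were counted, since a 5′TOP tract is such a run at the first base. RefSeq start windows (GRCm38.p6, 300 bases, of which 250 lie before the annotated start) matched 61 of the 81 genes. A C followed by at least 6 C or T on the sense strand, between 25 bases before and 50 bases after the start, was found in 48 of 61 (78.69%), against 9444 of 27025 genes with such a window (34.95%) and 24 of 69 mitochondrial ribosomal protein genes (34.78%). With the C at the annotated start itself and at least 4 C or T after it, the counts were 13 of 61 (21.31%), 813 of 27025 (3.008%) and 0 of 69. These definitions were chosen after the sequences had been seen. The windows below, 30 bases each, show the runs near the start in genes of both subunits and of the stalk, and in the paralog Rps27l. Its RiboTag minus sorted differences did not pass in the reported fit, but some did under other settings. The run is in capitals, and each sequence is the sense strand of the gene. The run begins 1 base before the annotated start in Rps6, 2 in Rpl28, 3 in Rps10 and 4 in Rpl15 and Rplp2. With the annotated start as base 1, it begins at base 9 in Rps12 and at base 27 in Rpl4. In Rps27l it begins 22 bases before the start and is over before it. Relative to these annotated starts, the runs of Rps12, Rpl4 and Rps27l do not lie where a 5′TOP tract would. Whether transcripts begin at the annotated starts was not tested.
Rps12 (chr10:23787182-23787211, minus strand): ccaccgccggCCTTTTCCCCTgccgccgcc
Rps6 (chr4:86857349-86857378, minus strand): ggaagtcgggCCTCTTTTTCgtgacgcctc
Rps10 (chr17:27635228-27635257, minus strand): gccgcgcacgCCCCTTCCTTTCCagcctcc
Rpl28 (chr7:4792953-4792982, plus strand): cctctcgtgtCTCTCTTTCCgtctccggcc
Rpl15 (chr14:18270971-18271000, minus strand): tgggagaaagCCTTCTTCCTTTCCTCTggc
Rpl4 (chr9:64173403-64173432, plus strand): aggagcgtggCCTTCTCCTCTCCCCgtcat
Rplp2 (chr7:141447637-141447666, plus strand): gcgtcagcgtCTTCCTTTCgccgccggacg
Rps27l (chr9:66946054-66946083, plus strand): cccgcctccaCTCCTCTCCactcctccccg

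The motif CCGGAAG on either strand, the core bound by ETS factors, was present somewhere in the 300 bases of 26 of the 61 genes (42.62%), against 9.928% of all genes and 37.68% of mitochondrial ribosomal protein genes. A match is a description of letters only. Genes with and without a pyrimidine run differed little in the comparisons below, with medians for RiboTag minus sorted at ad libitum ZT2 of -2.16 and -1.92 on the log2 scale.

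Levels between genes are compared per kilobase of coding sequence, as the mean normalised count over the 80 libraries. They ran from 0.104 to 37786, with a median of 4257. The highest was Rpl41, which encodes a peptide of the large subunit with a coding sequence of 75 bases, at 37786 per kb. After it came the small subunit genes Rps14 at 14128 and Rps3, which lines the entry channel of the message, at 12380. Rps29, also of the small subunit, lay at 10287 per kb. Low among the canonical genes were Rpl30 at 134.7, Rpl34 at 377, Rps27 at 464, Rpl10a at 1183 and Rpl22 at 1248 per kb. The paralogs Rpl39l and Rpl10l, known from testis, and Rpl3l, known from striated muscle, lay at 21.6, 0.104 and 4.604 per kb. Rpl10l was at 0 in 77 of 80 libraries and Rpl26, a canonical large subunit gene, in 53 of 80, with a highest normalised count of 6.43. These were the 2 of 81 that passed the filter on low values in no fit. Rpl3l was not tested in RiboTag, leptin or ZT5 libraries, and Rpl39l not in RiboTag or ZT5 libraries.

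These genes have many processed copies elsewhere in the genome, and reads that match a copy may be lost or split. Of the coding 50-base words of a gene, the share also found in transcripts of other genes was 100% for 29 of the 81, between 50% and 100% for 38 and under 50% for 14. In Rpl26 it was 87.3%, shared with 12 other genes. The median level per kb was 3898, 4120 and 6266 in these 3 classes, and Spearman's rho of the share with the level was -0.100 across 81 genes, which share all libraries. Across 79 genes the share had a rho of -0.145 with the RiboTag minus sorted difference at ad libitum ZT2 and of -0.076 with the fasting difference in sorted cells at ZT2. The levels of genes with shared sequence are therefore uncertain, while their differences resembled those of the others: the median at ad libitum ZT2 was -1.82 in the class under 50%, -2.16 in the middle class and -2.23 at 100%.

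The order of the genes by mean normalised count was much alike between collections, with a Spearman's rho of 0.915 between sorted and RiboTag libraries at ad libitum ZT2 and 0.934 at ZT14 (81 genes). The total of the genes was not alike. In sorted cells of ad libitum fed mice they made up 2.59% ± 0.918 (SD, n = 6) of all normalised counts at ZT2 and 2.08% ± 0.394 (SD, n = 3) at ZT14. In RiboTag libraries of ad libitum fed mice they made up 0.522% ± 0.105 (SD, n = 3) and 0.576% ± 0.0898 (SD, n = 4). RiboTag libraries of fed mice ran from 0.416% to 0.673% and sorted ones from 1.70% to 4.12%, without overlap. After fasting the sorted share was 1.12% ± 0.195 (SD, n = 7) at ZT2 and 1.06% ± 0.291 (SD, n = 8) at ZT14, and no fasted library reached the lowest fed one at its time of day. After 1 h of refeeding it was 1.77% ± 0.238 (SD, n = 5) and 1.66% ± 0.211 (SD, n = 4). Group means in the leptin and ZT5 libraries lay between 1.47% and 1.74%.

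**Figure D1:**
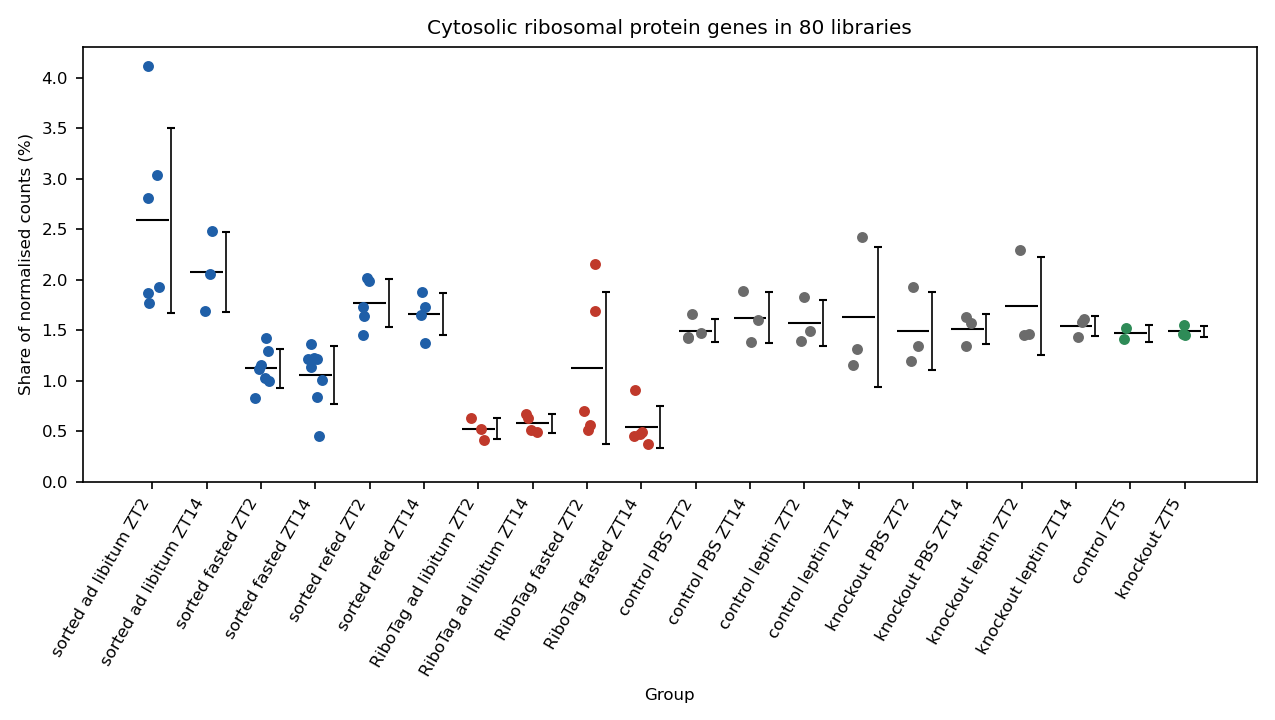
Share of all normalised counts (%) that fell to the 81 genes, by group; each point is 1 library, the horizontal line the group mean and the error bar the SD. RiboTag libraries of ad libitum fed mice lie between 0.416% and 0.673%, below every sorted library of fed mice, and RiboTag fasted ZT2 replicates 3 and 5 lie at 1.69% and 2.15%, above the other 3 of their group.

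Sorted cells and RiboTag immunoprecipitates were compared first in ad libitum fed mice, that is, RNA of whole sorted cells with all RNA found in the immunoprecipitates. Markers of other cell types, given below, were higher in the immunoprecipitates. What part of their RNA was on tagged ribosomes was not tested. At ZT2, 74 of the 79 genes tested were lower in RiboTag libraries and 0 were higher by limma with Benjamini-Hochberg adjusted p under 0.05, while 14.2% of 16238 genes were lower (41.5% called in either direction). The median log2 difference was -2.15 for the ribosomal protein genes and 0.29 for all genes tested. Without the library whose values were not whole multiples, 72 were called. Here and below, shares of all genes called belong to the reported fit, and those under other settings are not given. A correction for gene length and GC content brought the median to -1.29, with 71 genes lower and 1 higher. Both subunits took part: 31 of 32 small subunit genes were lower (median -2.26) and 43 of 47 large subunit genes (median -2.07), the latter including the 3 stalk genes. For 77 of the 79 genes every RiboTag library lay under every sorted one, which held for 16.9% of all genes. The 5 that did not pass were Rpl34, Rpl38, Rpl39l, Rpl3l and Rps27l.

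Rps19, a small subunit protein known from Diamond-Blackfan anaemia, had the largest difference. Its normalised counts were 884, 514 and 1159 in the 3 RiboTag libraries and from 4719 to 13602 in the 6 sorted ones, with a median of 6526. The groups were several fold apart with no overlap, and the log2 difference was -3.13 (SE 0.512, limma adjusted p = 5.18e-06). Rps12, a small subunit protein of the head, had 219, 158 and 280 in RiboTag and 898 to 4505 in sorted libraries (median 1698), a difference of -3.04 (SE 0.539, limma adjusted p = 1.84e-05). Rpl32 of the large subunit, at 568, 521 and 657 in RiboTag and 3209 to 6780 in sorted libraries (median 4303), followed at -2.95 (SE 0.453, limma adjusted p = 1.76e-06). Rpsa, which sits on the small subunit and is also known as a laminin receptor (chr9:120127689-120132369, GRCm38), had 1977, 1228 and 2347 in RiboTag libraries. In sorted cells Rpsa had 5732, 4906, 7540, 12781, 8349 and 4942, so that the lowest sorted library was above the highest RiboTag one, and the difference was -1.96 (SE 0.310, limma adjusted p = 3.01e-06).

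The stalk of the large subunit, built by Rplp0 with Rplp1 and Rplp2 and used to recruit elongation factors, was lower by less. Rplp0 had 2645, 2426 and 3153 in RiboTag libraries against 3915 to 7607 in sorted ones (median 5341), again without overlap, and its difference was -1.03 (SE 0.320, limma adjusted p = 0.00883). Rplp1 differed by -1.86 and Rplp2 by -1.63. Rpl22 is the protein that carries the tag, and a table by gene does not separate the tagged from the untagged message. Its counts were 321, 230 and 236 in RiboTag libraries and 479 to 1256 in sorted ones (median 710). Its log2 difference was -1.49 (SE 0.373, limma adjusted p = 0.00137), so the message of the tagged protein differed in the same direction as the others. Rps27l, a paralog of Rps27 known as a p53 target, had 555, 610 and 573 in RiboTag and 973 to 1516 in sorted libraries, which did not overlap, but its difference of -1.07 (SE 0.541) gave a limma adjusted p of 0.107, and with the length and GC correction its direction turned, to 0.75 (limma adjusted p = 0.0149).

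At ZT14 the picture in fed mice was close to this. There 66 of 79 genes were lower in RiboTag and 0 higher (limma; 11.3% of all genes lower, 36.3% called), with a median of -1.68 against 0.34 for all genes. These were 29 of 32 small and 37 of 47 large subunit genes. The 13 that did not pass were Rpl18, Rpl22, Rpl27, Rpl28, Rpl30, Rpl34, Rpl38, Rpl39l, Rpl3l, Rpl41, Rps15a, Rps26 and Rps27l, and Rpl22, at 329, 270, 354 and 380 against 877, 591 and 514, had -0.96 (limma adjusted p = 0.0573). For 77 of 79 the groups did not overlap (21.8% of all genes). Rps19 again had the largest difference, with 700, 637, 1068 and 1185 in RiboTag against 7927, 5815 and 4699 in sorted libraries (-2.79, SE 0.553, limma adjusted p = 1.22e-04). Rpl37, a zinc-binding protein of the large subunit, had 437, 373, 661 and 723 in RiboTag against 3989, 3086 and 2358 in sorted libraries (-2.54, SE 0.634, limma adjusted p = 0.0017). Rps12 had 178, 139, 298 and 287 against 1535, 1206 and 921 (-2.47, SE 0.582, limma adjusted p = 9.45e-04). Across genes the differences at ZT2 and ZT14, which share no library, had a Spearman's rho of 0.878 (79 genes). Leaving out sorted ad libitum ZT14 replicate 1 lowered the count from 66 to 35, and the length and GC correction gave 43 lower with a median of -0.93.

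**Figure D2:**
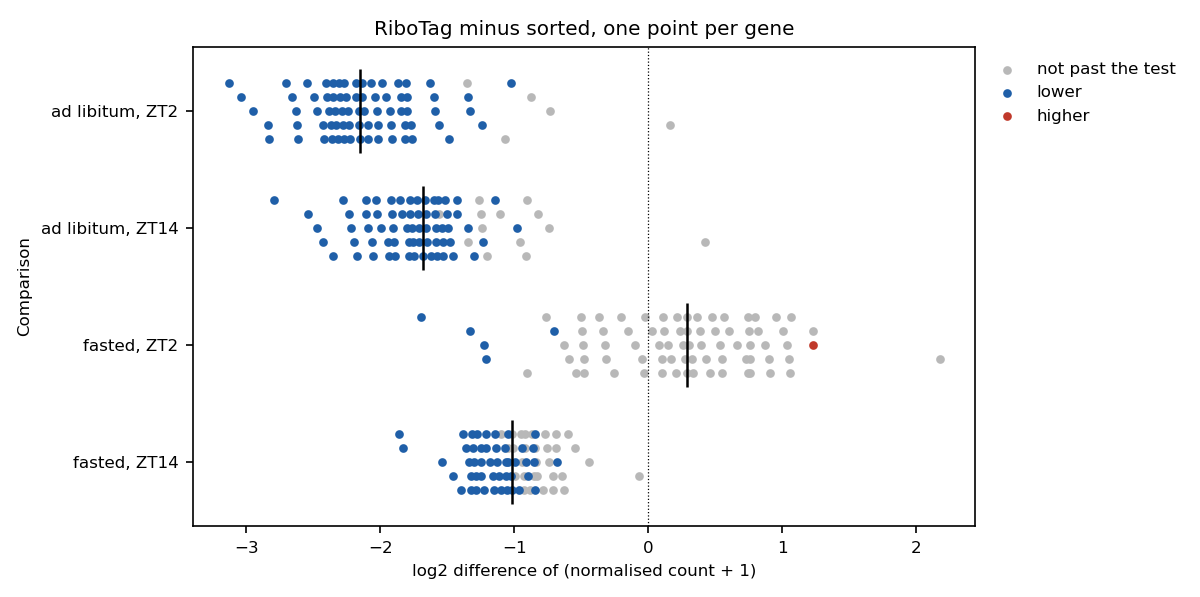
RiboTag minus sorted difference of each gene tested, on the log2(normalised count + 1) scale, in 4 comparisons; each point is 1 gene, coloured by whether it passed limma's test, and the vertical line is the median. The medians lie at -2.15 and -1.68 in ad libitum fed mice, at 0.29 at fasted ZT2 and at -1.02 at fasted ZT14.

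After the fast the 2 times of day parted. At fasted ZT14, 48 of 79 genes were lower in RiboTag and 0 higher (limma; 13.1% of all genes lower, 40.0% called), with a median of -1.02 against 0.23. Rpl13 of the large subunit had 1177, 890, 1100, 752 and 553 in RiboTag and 1263 to 5278 in sorted libraries (median 3842), and differed most, by -1.86 (SE 0.299, limma adjusted p = 3.03e-06). It was the 1 gene whose groups did not overlap (2.54% of all genes lay apart with RiboTag lower). Rps19 had 341, 414, 1499, 804 and 516 in RiboTag and 888 to 3102 in sorted libraries (median 2540), a difference of -1.83 (SE 0.413, limma adjusted p = 4.35e-04). Rpl32 had 446, 493, 1336, 535 and 413 against 546 to 2676 (median 2091), a difference of -1.54 (SE 0.365, limma adjusted p = 7.58e-04). In both genes replicate 3 was the RiboTag library nearest to the sorted ones. The count ranged from 31 without RiboTag fasted ZT14 replicate 4 to 74 without replicate 3, and with the length and GC correction 27 genes were lower and 2 higher, with a median of -0.41. At fasted ZT2, 5 genes were lower and 1 higher (limma; 10.1% of all genes lower and 21.0% higher, 31.1% in all), and the median was 0.29 against 0.30 for all genes. The lower ones were Rpl3, near the site where peptide bonds form, Rpl4, which lines the exit tunnel, Rpl10, Rpl13 and Rps2, and the higher one was Rpl28. Rpl28 had 762, 1127, 8982, 1291 and 7565 in RiboTag and 709 to 1679 in sorted libraries (median 850), so that its difference of 1.23 (SE 0.414, limma adjusted p = 0.0196) came with an overlap of all but replicates 3 and 5. The call for Rpl28 ended when either of these was left out.

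The direction at fasted ZT2 was not stable. By edgeR 31 genes were higher and 5 lower (median 0.85), and with the length and GC correction 21 were higher and 12 lower (median 0.35). The shares of all genes called in these fits and in the next are not given here. Without replicates 3 and 5, which was chosen after seeing the data, 38 of 79 genes were lower and 0 higher, with a median of -0.82, the opposite sign to the median over all 5 libraries, and the groups did not overlap for 45 genes instead of 3 (7.06% instead of 3.05% of all genes). Normalised counts summed to 42.5 and 22.2 M in replicates 3 and 5, against 13.5 to 15.1 M in replicates 1, 2 and 4. The ribosomal protein genes held 1.69% and 2.15% of these totals, against 0.509%, 0.559% and 0.700%. How far the totals enter the counts that follow was not tested. Rps12 had 166, 168 and 246 in replicates 1, 2 and 4 but 2704 and 1415 in replicates 3 and 5. Rps19 had 495, 441 and 801 against 7501 and 3865, and Rpl22 had 199, 188 and 199 against 892 and 894. The paralog Rps27l went from 535, 705 and 1364 to 10754 and 9305, and Rps21 from 502, 656 and 1190 to 11320 and 13136. Other genes were higher in the pair by less: Rpl3 had 2082, 1669 and 1578 in the 3 libraries and 3203 and 2390 in the pair, and Rpl4 had 3609, 4775 and 3138 against 5250 and 5332. In sorted fasted ZT2 cells, Rpl3 lay between 5112 and 9031, above all 5 RiboTag libraries, with a difference of -1.70 (SE 0.221, limma adjusted p = 7.4e-08), and Rpl4, at 8419 to 14180 in sorted cells, differed by -1.33 (SE 0.210, limma adjusted p = 3.44e-06).

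**Figure D3:**
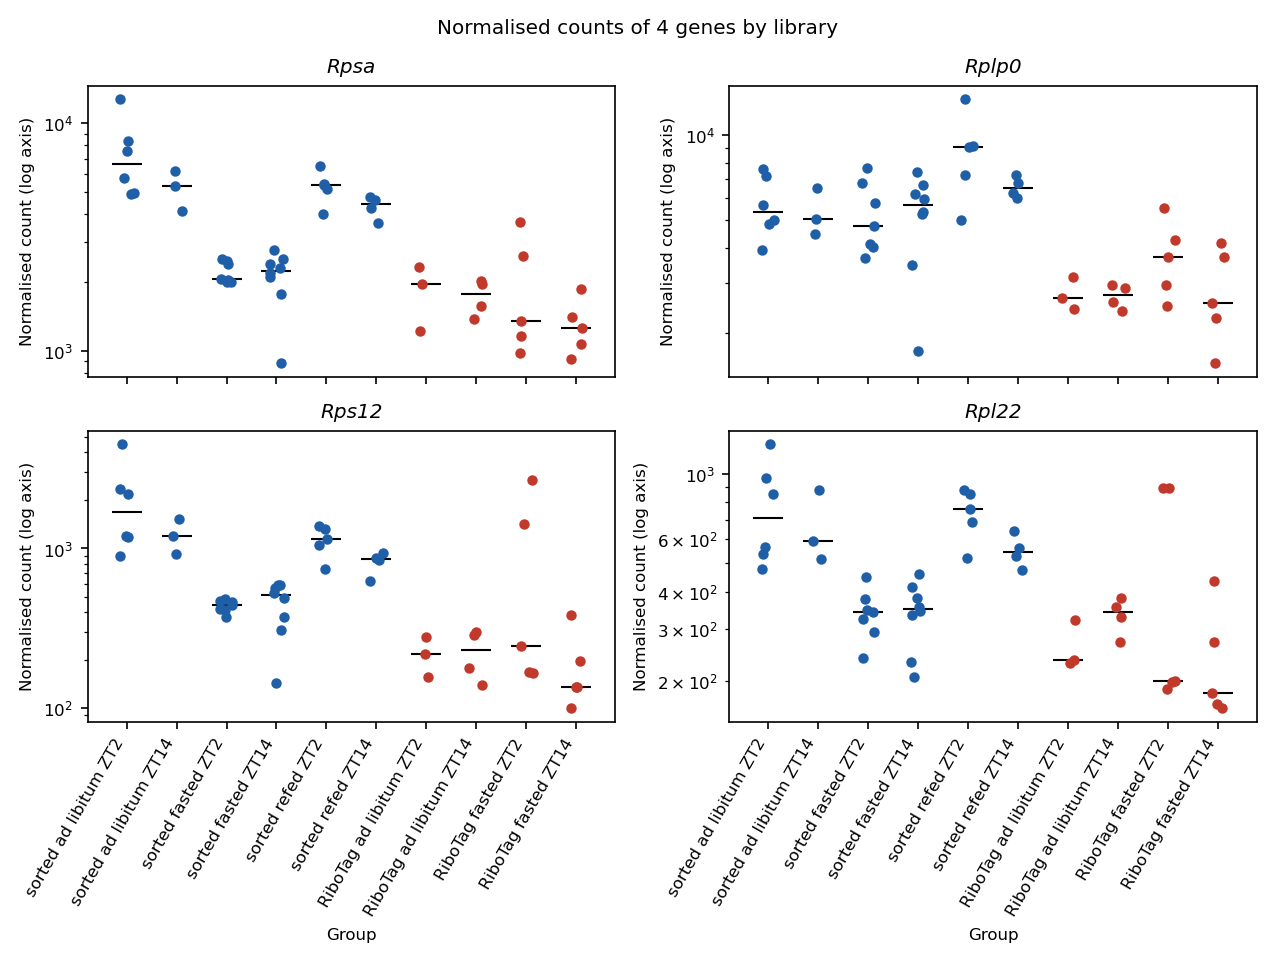
Normalised counts (log axis) of Rpsa, Rplp0, Rps12 and Rpl22 in the sorted and RiboTag groups; each point is 1 library and the line the group median. Rps12 lies between 158 and 280 in RiboTag libraries of ad libitum fed mice at ZT2 and reaches 2704 and 1415 in RiboTag fasted ZT2 replicates 3 and 5.

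Within the pair, the size of the rise followed the length of the gene. Each gene's log2 value in a library was set against its median over the 80 libraries, for the 77 genes at 10 or more in every library. In replicates 3 and 5 the 20 genes with the shortest coding sequences (75 to 369 bases) stood 2.83 and 2.66 above their own medians. The 20 with the longest (612 to 1257 bases) stood at 0.40 and -0.36. The gap between short and long genes was thus 2.43 and 3.02 in the pair, 1.13 in replicate 4, and 0.35 and 0.57 in replicates 1 and 2. Spearman's rho with coding length was -0.672 and -0.844 in the pair and -0.635 in replicate 4, as a description across 77 genes of 1 library. RiboTag fasted ZT14 replicate 3 showed a gap of 1.64 (rho -0.765) and replicate 1 of the same group one of -0.74. Outside the RiboTag fasted groups the gap stayed between -0.49 and 0.48. In replicate 3 of fasted ZT2, Rn45s was 148448, the highest of the fasted libraries, and its part in these values was not tested. Nor was the part of the higher totals of normalised counts in the pair.

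**Figure D4:**
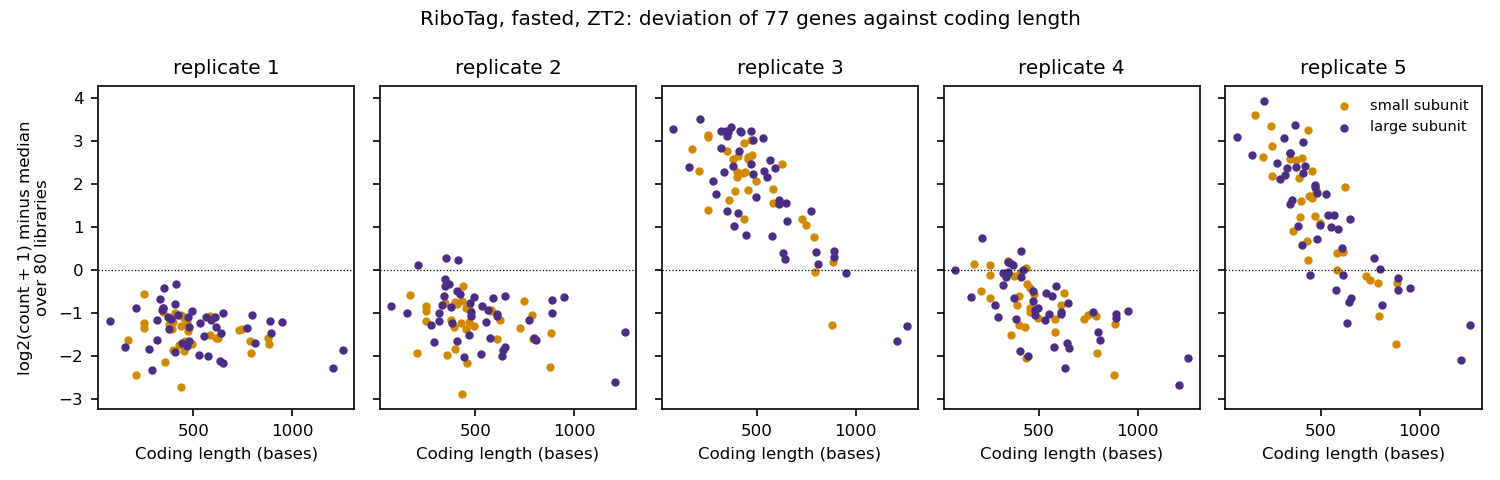
Deviation of 77 genes from their median over 80 libraries, as log2(normalised count + 1), against coding length in bases, in the 5 RiboTag fasted ZT2 libraries; each point is 1 gene. In replicates 3 and 5 short genes stand above 0 and long ones near or below it, with gaps between the 20 shortest and 20 longest of 2.43 and 3.02, against 0.35 in replicate 1.

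Markers of other cell types moved with the comparison of collections. At ad libitum ZT2 all 11 astrocyte, 10 oligodendrocyte, 7 oligodendrocyte precursor, 11 microglia and 9 endothelial and mural markers were higher in RiboTag by limma. Of all genes, 41.5% were called in either direction. The lists of POMC neuron markers and of tanycyte and ependymal markers are not given here. Over all fed and fasted libraries the summed astrocyte markers ran from 18259 to 396580 in RiboTag and from 1819 to 41506 in sorted libraries. Oligodendrocyte markers ran from 11455 to 257210 against 751 to 7579, and microglia markers from 2136 to 80244 against 360 to 3419. Precursor markers ran from 566 to 16630 against 0 to 360, and endothelial and mural markers from 2381 to 109340 against 38.3 to 807. Of 14 AgRP neuron markers, 3 were lower in RiboTag at ad libitum ZT2, where 14.2% of all genes were lower. How many of the 14 were higher is not given here. The part of other cell types in the lower ribosomal protein values was not tested, and genotype, collection and the RNA fraction cannot be told apart. Nor can fewer cells of a type be told apart from less RNA per cell in bulk samples.

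Other genes of the translation machinery were set beside these differences. At ad libitum ZT2, 14.2% of all genes were lower in RiboTag and 41.5% were called in either direction. A count near these shares is no trait of its list. Of 19 elongation factors and other 5′TOP messages, 12 were lower and 3 higher in RiboTag at ad libitum ZT2 (median -1.24). Among those lower were Eef1a1, which delivers tRNAs, at -1.91, Npm1, a nucleolar chaperone, at -1.91, Eif3e at -1.79 and Eef1g at -1.30. Of 76 mitochondrial ribosomal protein genes, whose messages are also read by cytosolic ribosomes, 34 were lower and 1 higher (median -0.76). Of 30 initiation factors 11 were lower and 4 higher (median -0.16), and of 60 ribosome biogenesis genes 17 were lower and 13 higher (median -0.11). Of 24 genes of the mTORC1 pathway, 4 were lower and 5 higher (median 0.37). The ribosomal protein genes thus had the lowest median of these 6 lists, a description that was not tested.

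Fasting was compared with ad libitum feeding within sorted cells. At ZT2, 59 of 79 genes fell and 0 rose by limma (19.2% of 14931 genes fell, 37.5% called), with a median log2 difference of -0.99 against -0.02 for all genes. Without the library whose values were not whole multiples, 51 fell. These were 28 of 32 small subunit genes (median -1.16) and 31 of 47 large subunit genes (median -0.83). For 29 of them every fasted library lay under every fed one (8.64% of all genes). Rps12 fell most, from 898 to 4505 in fed cells to between 375 and 482 in the 7 fasted libraries (median 443), by 2.01 on the log2 scale (SE 0.290, limma adjusted p = 1.54e-06). Rpl9 of the large subunit had 6898 to 22909 in fed and 2224 to 4393 in fasted cells (medians 10399 and 2918) and fell by 1.79 (SE 0.265, limma adjusted p = 2.41e-06). Rps20 of the small subunit head had 2410 to 6966 and 722 to 1449 (medians 3144 and 1116) and fell by 1.72 (SE 0.254, limma adjusted p = 2.22e-06). In all 3 genes fed and fasted libraries were clear of each other. Rpsa lay between 2003 and 2532 after the fast (median 2062), less than in any fed library, and fell by 1.65 (SE 0.209, limma adjusted p = 1.73e-07).

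The genes did not move as one. Rplp0 had 3671 to 7677 in fasted cells (median 4765) against 3915 to 7607 in fed cells, groups that overlapped almost wholly, and its difference was -0.13 (SE 0.253, limma adjusted p = 0.723). The other stalk genes, Rplp1 and Rplp2, fell by 0.74 (limma adjusted p = 0.012) and 0.78 (limma adjusted p = 0.0171). Rps27l had 851 to 1482 (median 1309) against 973 to 1516 and a difference of 0.03 (limma adjusted p = 0.925). Rps6, whose protein is the classical target of S6 kinase, had -0.41 (limma adjusted p = 0.244), and Rpl4 had -0.51 (limma adjusted p = 0.051), whereas Rpl3 fell by 1.29. The others that did not pass were Rpl10a, Rpl18, Rpl19, Rpl27, Rpl28, Rpl30, Rpl34, Rpl35, Rpl35a, Rpl38, Rpl39l, Rpl3l, Rpl5, Rpl6, Rps16 and Rps27. Rpl22, with 240 to 449 (median 341) against 479 to 1256, fell by 1.13 (SE 0.217, limma adjusted p = 1.02e-04), and its groups did not overlap.

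At ZT14, 36 of 79 genes fell and 0 rose with fasting (limma; 8.81% of all genes fell, 18.5% called), with a median of -0.82 against -0.04. Rpl37a of the large subunit fell most, from 4057, 3176 and 2738 in fed to between 366 and 1955 in fasted cells (median 1311), by 1.58 (SE 0.330, limma adjusted p = 8.13e-04). Rps20 went from 3759, 2763 and 1983 to between 353 and 1401 (median 1110) and fell by 1.53 (SE 0.309, limma adjusted p = 5.46e-04). Rps12 had 1535, 1206 and 921 in fed and 143 to 595 in fasted cells (median 509) and fell by 1.53 (SE 0.353, limma adjusted p = 0.00236). None of these 3 overlapped between fed and fasted cells. Rpsa had 6154, 5282 and 4111 in fed and 881 to 2789 in fasted cells (median 2248) and fell by 1.33 (limma adjusted p = 3.01e-04), and Rplp0 again did not differ beyond its spread (-0.12, limma adjusted p = 0.82). Groups did not overlap, with fasted cells lower, for 34 genes (8.0% of all genes). The difference between the fasting effects at the 2 times passed for 0 of 79 genes (0.0% of all genes) by limma, for 0 at an unadjusted p under 0.05 and for 0 by edgeR. Across genes the fasting differences at ZT2 and ZT14 had a Spearman's rho of 0.945 (79 genes, no shared library). The count at ZT14 was 17 without sorted ad libitum ZT14 replicate 1.

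Refeeding for 1 h went the other way. At ZT2, 40 of 79 genes rose from fasted to refed cells and 0 fell (limma; 10.8% of all genes rose, 21.8% called), with a median of 0.71 against -0.06, and refed libraries lay above all fasted ones for 24 genes (5.24% of all genes). Rps12 rose by 1.34 (SE 0.305, limma adjusted p = 0.0014), to 1141, 1385, 740, 1317 and 1056. Rps20, at 2657, 3082, 1841, 2460 and 2757 in refed cells, rose by 1.27 (SE 0.267, limma adjusted p = 5.85e-04). Rpsa, at 5437, 5344, 3980, 6529 and 5152 in refed cells, rose by 1.24 (SE 0.220, limma adjusted p = 7.12e-05) and did not overlap with fasted cells. Rpl22 rose by 1.12 (limma adjusted p = 4.06e-04). Rplp0, which had not fallen, had 9175, 7223, 5026, 13418 and 9101 in refed cells and was higher by 0.72 (SE 0.266, limma adjusted p = 0.0497), a call that ended with TMM rescaling (limma adjusted p = 0.0513) and in 9 of 12 fits that left out 1 library.

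At ZT14, 17 of 79 genes rose with refeeding and 0 fell (limma; 6.36% of all genes rose, 11.7% called), with a median of 0.61 against 0.01, and 14 did not overlap (4.09% of all genes). Rps2, a small subunit protein at the entry channel, had 594 to 2274 in fasted cells (median 1819) and 3934, 3410, 3519 and 3096 in refed ones, and rose by 1.19 (SE 0.260, limma adjusted p = 0.00151). Rpl9 had 1031 to 4376 (median 3398) and then 7134, 7033, 6012 and 4899, a rise of 1.10 (SE 0.292, limma adjusted p = 0.00939). Rpsa had 4750, 4598, 4261 and 3658 in refed cells and rose by 1.08 (SE 0.230, limma adjusted p = 0.00116). Every refed library lay above every fasted one for these 3 genes. Rps12, at 873, 943, 842 and 629, rose by 0.97 (limma adjusted p = 0.0413), and Rpl22 by 0.72 (limma adjusted p = 0.0429). These calls were lost in 6 of 12 fits that left out 1 library for Rps12 and in 8 of 12 for Rpl22, with the rise still positive in each. The count was 6 without sorted refed ZT14 replicate 1.

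Refed cells were also set against ad libitum fed ones, a comparison that shares libraries with those above. By limma 0 of 79 genes passed at ZT2 and 0 at ZT14 (17.7% and 0.375% of all genes called). The medians were -0.26 and -0.23, 8 genes were lower and 2 higher at an unadjusted p under 0.05 at ZT2 and 0 at ZT14, and edgeR called 0 at both times. With the length and GC correction 20 genes were lower and 1 higher at ZT2. The smallest p at ZT2 belonged to Rps27a, made as a fusion with ubiquitin, at -0.75 (SE 0.286, limma adjusted p = 0.0658), and to Rpl27a at -0.65 (limma adjusted p = 0.095). At ZT14 it belonged to Rps19 at -0.63 (limma adjusted p = 0.824) and Rpl36 at -0.60 (limma adjusted p = 0.879).

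**Figure D5:**
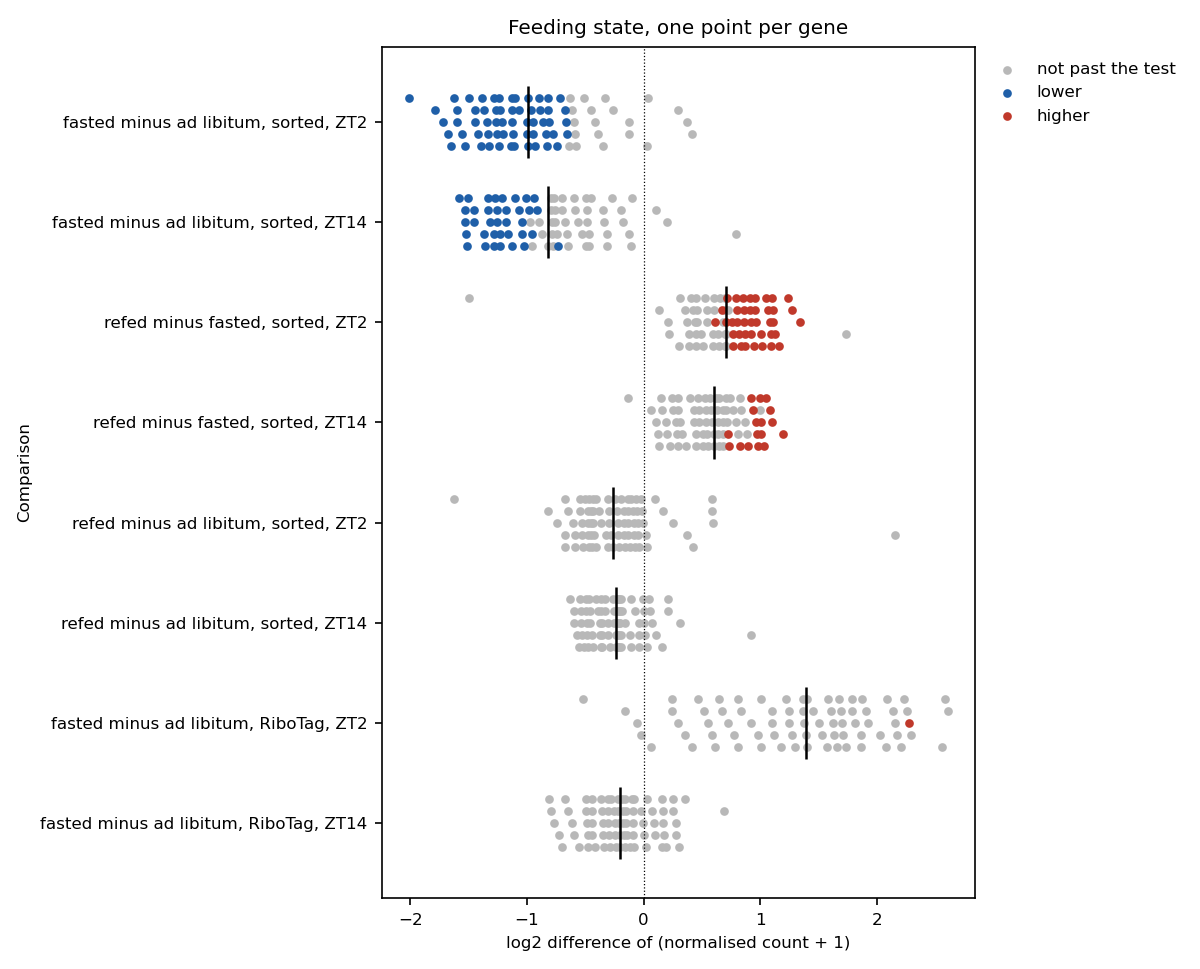
Differences by feeding state of each gene tested, on the log2(normalised count + 1) scale; each point is 1 gene, coloured by whether it passed limma's test, and the vertical line is the median. Sorted medians lie at -0.99 and -0.82 for fasting and at 0.71 and 0.61 for refeeding, and the RiboTag medians for fasting at 1.39 (ZT2) and -0.20 (ZT14).

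The profile of fasted libraries moved with these results. Rn45s fell by 5.98 on the log2 scale with fasting in sorted cells at ZT2 (limma adjusted p = 1.4e-10) and was higher by 5.55 in refed than in fasted cells. In the 2 ZT5 control libraries the median log2 difference of the ribosomal protein genes to control PBS libraries at ZT2 was 0.14, with 57 genes higher and 24 lower. With ZT5 control replicate 2 alone, leaving out the library that went against its genotype, it was 0.30, with 58 higher and 23 lower, both descriptions with no test. Of markers of other cells, only those for astrocytes and POMC neurons that were higher with fasting are given here. At ZT2 these were 3 of 11 for astrocytes and 4 of 6 for POMC neurons, where 18.3% of all genes were higher (limma). At ZT14 they were 5 of 11 for astrocytes, where 9.66% of all genes were higher (limma). The part of the profile or of these cells in the fall was not tested.

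In sorted cells some other genes of translation moved as well. Of all genes, 19.2% fell and 18.3% rose with fasting at ZT2, and 8.81% fell and 9.66% rose at ZT14. With refeeding at ZT2, 10.8% of all genes rose and 21.8% were called in either direction. Of the 19 elongation and other 5′TOP messages, 8 fell and 1 rose with fasting at ZT2 (median -0.54) and 5 fell and 1 rose at ZT14 (median -0.52). Eef1a1 fell by 1.82 (limma adjusted p = 4.78e-09), Npm1 by 1.16 and Eef2, the translocation factor, by 1.08. With refeeding at ZT2, 5 rose and 1 fell, Eef1a1 rising by 1.44 and Eef2 by 1.16. Mitochondrial ribosomal protein genes did not follow, with 3 of 76 falling and 10 rising with fasting at ZT2 (median -0.03). Ribosome biogenesis genes had 7 of 60 falling and 16 rising (median 0.19), and initiation factors 5 of 30 falling and 10 rising (median 0.07). Among 24 genes of the mTORC1 pathway 9 rose and 7 fell. They included Rragc, a Rag GTPase, up by 1.65, Akt1s1, an mTORC1 inhibitor also called PRAS40, up by 2.64, Sesn3, a sestrin, down at -2.87, and Mtor itself at -1.31.

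Fasting in RiboTag libraries lowered no ribosomal protein gene past limma's test in the fit without a length and GC correction. At ZT2, 1 of 77 rose and 0 fell by limma (4.08% of 15444 genes rose, 7.89% called), though the median was 1.39 against -0.19 for all genes. The one that rose was Rpl30 of the large subunit, from 11.97, 10.6 and 14.6 to 25.4, 41.3, 125, 54.6 and 141 normalised counts, by 2.28 (SE 0.658, limma adjusted p = 0.041), a call lost in 7 of 8 fits that left out 1 library. At an unadjusted p under 0.05, 38 were higher and 0 lower, and 28 passed by edgeR, all higher (median 2.20). The shares of all genes that did so are not given here. For 19 genes every fasted library lay above every fed one (8.61% of all genes). Rpsa had 982, 1162, 3697, 1355 and 2625 in fasted libraries against 1977, 1228 and 2347 in fed ones, a spread wider than any gap between the groups. Without the pair that stood apart 0 passed and the median was 0.23. With the length and GC correction 3 rose and 2 fell, and the median was 0.39. At ZT14, 0 of 77 passed (limma; 5.29% of all genes called), with a median of -0.20 against -0.16, 1 gene lower at an unadjusted p under 0.05 and 0 by edgeR, while with the length and GC correction 5 fell and 0 rose, with a median of -0.40. The smallest p belonged to Rps2, with 849, 919, 1073 and 1185 in fed and 892, 564, 721, 536 and 407 in fasted libraries, at -0.73 (limma adjusted p = 0.164) and Rpl3 at -0.47 (limma adjusted p = 0.346).

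Whether fasting acted differently in the 2 collections was tested as an interaction. At ZT2 the fasting difference was higher in RiboTag than in sorted libraries for 64 of 79 genes and lower for 0 (limma; 3.61% of 16238 genes higher, 6.72% called), with a median of 2.501 against -0.09. The largest were Rps21 at 3.42 (SE 0.824, limma adjusted p = 0.0105), Rps26, which touches the message at the exit channel, at 3.30 (SE 0.701, limma adjusted p = 0.00399) and Rps29 at 3.29 (SE 0.873, limma adjusted p = 0.0189). Rps26 went from 869 to 3279 in fed to 565 to 1091 in fasted sorted cells (medians 1585 and 711), while in RiboTag libraries it was 410, 253 and 322 when fed and 453, 525, 6064, 1028 and 5378 when fasted. Rps29 had sorted medians of 2394 and 1139, and in RiboTag libraries 609, 374 and 596 when fed and 444, 925, 9644, 1524 and 16862 when fasted. The highest values of both are those of fasted replicates 3 and 5. Rps12 had 3.19 (SE 0.699, limma adjusted p = 0.00517), Rpsa 1.59 (SE 0.403, limma adjusted p = 0.0142) and Rpl22 1.60 (SE 0.485, limma adjusted p = 0.0372), while Rplp0 had 0.55 (limma adjusted p = 0.443). Leaving out 1 library ended the call in 9 of 21 fits for Rpl22. It did so for Rpsa without RiboTag ad libitum ZT2 replicate 2, and for Rps29 without that library or without RiboTag fasted ZT2 replicate 5. Without RiboTag fasted ZT2 replicates 3 and 5, 7 genes passed (Rps12, Rps26, Rps27a, Rps24, Rpl12, Rpl9 and Rpl32) and the median was 1.28, and with the length and GC correction the median was 1.62. The count was 49 without the sorted library whose values were not whole multiples, 39 and 25 without RiboTag ad libitum ZT2 replicates 1 and 2, and 41 without RiboTag fasted ZT2 replicate 5. The shares of all genes called in these refits are not given here, so their counts cannot be set against them. At ZT14, 0 of 79 passed (limma; 1.03% of all genes called), with a median of 0.65, 2 genes higher at an unadjusted p under 0.05 and 0 by edgeR. There Rpl3 had 0.86 (limma adjusted p = 0.253) and Rpsa 0.89 (limma adjusted p = 0.334).

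Time of day moved no gene of the set past the test. Sorted cells had median ZT14 minus ZT2 differences of -0.30 when fed, -0.18 when fasted and -0.31 when refed, and RiboTag libraries 0.08 when fed, with 0 genes called by limma or edgeR and 0 at an unadjusted p under 0.05 in each (0.0%, 0.281%, 0.0268% and 0.0% of all genes called). In fasted RiboTag libraries the median was -1.57, and 59 of 77 genes were lower at ZT14 at an unadjusted p under 0.05. By limma 0 passed after adjustment (0.0% of all genes), and edgeR called 0. The share of all genes at the unadjusted threshold is not given here, so the 59 cannot be set against it. The smallest p belonged to Rpl12, with 883, 1103, 5512, 921 and 3539 at ZT2 and 739, 464, 1090, 368 and 547 at ZT14, at -1.57 (SE 0.454, limma adjusted p = 0.531) and Rpl35a at -1.99 (SE 0.576, limma adjusted p = 0.531), and this contrast includes the pair of ZT2 libraries that stood apart. Its median was -0.34 without the pair and -0.60 with the length and GC correction.

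In the knockout libraries, Arntl is the targeted gene. In controls it had 616, 291, 1125 and 1027 normalised counts with PBS and 682, 832 and 1211 with leptin at ZT2. Knockouts at ZT2 had 332, 526 and 246 with PBS and 436, 338 and 259 with leptin. At ZT14 controls had 259, 422 and 298 with PBS and 353, 223 and 277 with leptin, and knockouts 395, 230 and 224 with PBS and 262, 108 and 146 with leptin. At ZT5 it had 750 and 390 in controls and 540, 470 and 491 in knockouts. Knockouts lay below controls without overlap with leptin at ZT2, and the groups overlapped with PBS at both times and at ZT5. Arntl passed limma's test in none of these genotype comparisons. Counts by gene include reads from outside the floxed part, which do not check the deletion.

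No ribosomal protein gene passed the test for genotype or leptin. Leptin minus PBS gave medians of 0.08 and -0.10 in controls and 0.18 and 0.06 in knockouts at ZT2 and ZT14, with 0 of 78 genes called (limma; 0.0215%, 0.0%, 0.423% and 0.0861% of all genes called). At an unadjusted p under 0.05 there was 1 gene lower in knockouts at ZT14 and 0 elsewhere. Knockout minus control gave 0.06 and -0.08 with PBS and 0.16 and 0.07 with leptin, with 0 called (0.0215%, 0.00717%, 0.00717% and 0.0215%) and 0 at an unadjusted p under 0.05. At ZT5 the median was 0.03, with 0 of 77 called (0.0%), 0 at an unadjusted p under 0.05, and 0 without the control library that went against its label. ZT14 minus ZT2 within these groups gave medians of 0.11, -0.07, -0.06 and -0.16, with 0 called (0.00717%, 0.0%, 0.0% and 0.043%). edgeR called 0 in all of these. As an example, control PBS libraries at ZT2 had 631 to 821 counts of Rps12 (median 696), and the knockout ones 447, 604 and 1435. The smallest p values at ZT5 belonged to Rps29, with 1921 and 2000 in controls and 1251, 1563 and 1765 in knockouts, at -0.37 (SE 0.201, limma adjusted p = 0.621) and Rps7 at 0.34 (SE 0.190, limma adjusted p = 0.63), and in PBS libraries at ZT2 to Rplp0 at 0.31 (SE 0.214, limma adjusted p = 0.999). In leptin libraries Rpl39l often had the smallest p, for example at 2.27 (SE 1.16, limma adjusted p = 0.612) for leptin in knockouts at ZT2, at counts of at most 30.1.

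Much of the spread of these genes within a group was shared by all of them, except in the 2 ZT5 control libraries, where the SD described here went from 0.07 to 0.09. In sorted fed cells at ZT2 the median SD of log2 values over libraries was 0.59 for the ribosomal protein genes and 0.39 for all genes with a mean log2 value of at least 5. Taking out each library's median deviation of the ribosomal protein genes brought it to 0.17. In sorted fasted cells at ZT14 it went from 0.70 to 0.15. In RiboTag fasted libraries at ZT2 it went from 1.62 to 0.48, the largest remainder of any group, and at ZT14 from 0.68 to 0.37. Elsewhere the remainder lay between 0.06 and 0.17. Outside the ZT5 controls the genes thus mostly went up and down together from library to library, and in both RiboTag fasted groups they also parted from each other.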

How the data were processed

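The deposited table holds signal: counts per gene that the authors normalised by a size factor per library, for 23337 genes in 80 libraries. Per the labels' protocols, a SMART-seq v4 kit amplified the RNA and Nextera XT made the libraries. Per the submitters' processing notes, the tools were STAR 2.5.1, R 3.5.1, DESeq2, DESeq and featureCounts from Subread on mm10; roles are not given. The strand setting is not given in the sources used here, so overlapping antisense reads cannot be told apart.

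Whole reads were recovered in 79 of 80 libraries, where values divided by the step of 1 read came within 0.1 of a whole number for at least 99.993% of values. On these reads edgeR called 74 and 72 of the genes for RiboTag minus sorted at ad libitum ZT2 and ZT14, and 56 and 37 for sorted fasting. The shares of all genes called by edgeR are not given here. In sorted ad libitum ZT2 replicate 4, 47.2% of values came that close to a whole number, and this library was left out of edgeR only. Recovered reads ran from 8.16 to 27.4 M in sorted, 11.4 to 23.1 in RiboTag, 5.93 to 34.0 in leptin and 10.8 to 17.3 in ZT5 libraries.

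limma 3.58.1 with a mean-variance trend (R 4.3.3) was fitted to log2(value + 1) of each experiment, all groups together, and sorted with RiboTag libraries in a joint fit. A fold difference refers to this scale and is too small for low genes. A gene was tested if a number of libraries equal to the smallest group held 10 or more, with Benjamini-Hochberg adjustment over every gene tested and a threshold of 0.05. That left 16238 genes in the joint fit, 14931 in sorted, 15444 in RiboTag, 13942 in leptin and 12940 in ZT5 libraries, with 79, 79, 77, 78 and 77 of the 81 genes. Gene positions and lengths came from GENCODE M21 (GRCm38), and promoter windows from RefSeq. Alternatives were edgeR 4.0.16 (quasi-likelihood on recovered reads), TMM and upper quartile rescaling, log2(value + 5), no filter, a correction for length and GC content, the replicate number as a block, and leaving out libraries.

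Each simulation changed 100 genes 2-fold and 100 genes 4-fold and left the others unchanged. There limma recovered 14% of the 2-fold and 68% of the 4-fold changes for RiboTag minus sorted at ad libitum ZT2. The shares were 49% and 93% for sorted fasting at ZT2 and 2% and 33% for RiboTag fasting at ZT2. They were 34% and 95% for control leptin at ZT2 and 22% and 68% for the ZT5 genotypes. Unchanged genes called numbered 6, 6, 1, 6 and 2 in this order. In the data 41.5% and 37.5% of all genes were called in the first 2 of these comparisons. With Benjamini-Hochberg adjustment recovery depends on how many genes change, so these shares do not give the power in the data.

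The genes, the other gene lists and the naming rule were chosen with earlier results of these data known. Any of the 81 could be named. Values by library were to be given for Rpsa, Rps12, Rplp0, Rpl22 and Rps27l and for the 3 largest differences in each direction (2 smallest p where none passed). Rps21 in single libraries and the length classes were chosen after their values were seen. Figures were drawn with matplotlib 3.10.9 in Python 3.11.15.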

Additional observations from a re-analysis of the deposited data

Results flagged for a closer look

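In the RiboTag fasted ZT14 group, replicate 3 held 0.906% of its normalised counts in the ribosomal protein genes, and its distance from the nearest of the other 4 libraries was large against the range of the whole group. For Rps27l, RiboTag ad libitum ZT14 replicate 4 stood apart at 681 and sorted fasted ZT2 replicate 4 at 851, by the same measure. Of 54 combinations of group and measure examined in this way 3 stood out, and chance gives about 1 in 20.

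The fasting difference at ZT2 differed between RiboTag and sorted libraries, by limma's test of the interaction, for 64 of the 79 genes. Among the genes whose values were fixed to be shown, it was 1.60 for Rpl22, 3.19 for Rps12 and 1.59 for Rpsa on the log2 scale. Without RiboTag fasted ZT2 replicates 3 and 5 the count was 7, and of these 3 genes Rps12 still passed, while Rpl22 had 0.72 (limma adjusted p = 0.338). The share of all genes called in that fit is not given here.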

How the results depend on the processing

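The direction of RiboTag minus sorted at fasted ZT2 turned with the setting. It gave 1 gene higher and 5 lower as reported, 31 and 5 by edgeR (36 called), 21 and 12 with the length and GC correction (33 called), 20 and 4 without RiboTag replicate 1 (24 called), 12 and 4 without replicate 2 (16 called), and 0 and 38 without the pair. Its median went from 0.29 to -0.82 without the pair, to -0.27 without replicate 3 and to -0.04 without replicate 5. Without the pair Rps12 turned from 0.15 to -1.19 and Rpl22 from 0.11 to -0.77, both then called. With the length and GC correction Rps27l turned to 0.75 at ad libitum ZT2 and 0.49 at fasted ZT14, both called. The medians of 2 comparisons with 0 genes called also changed sign: the sorted fasting difference between times went from 0.11 to -0.04 without the library whose values were not whole multiples and to -0.06 without sorted ad libitum ZT14 replicate 3, and the ZT5 genotype difference from 0.03 to -0.05 without control replicate 1 or knockout replicate 2. Among the single-gene values recomputed, none that passed as reported changed sign, and 73 that did not pass did, 67 of them under settings chosen at the start.

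Counts of genes called per comparison were taken as kept at the same main direction and within 1.5 times the reported count, or at 0 in both fits. Under settings chosen at the start 459 were kept and 46 were not. With the pair of RiboTag fasted ZT2 libraries left out, a setting chosen after seeing the data, 7 were kept and 3 were not. Comparisons with 0 called have no direction to keep and raise these tallies, such as time of day in sorted cells, kept in 33 of 33 fits that left out 1 library. The count for RiboTag fasting at ZT2 was kept in 1 of 8 such fits. For single genes, 2010 values kept their side of the threshold, 68 lost it and 24 gained it in the same direction under the first kind of setting.

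With the length and GC correction 43 instead of 66 were called at ad libitum ZT14, 29 instead of 48 at fasted ZT14, 55 instead of 36 for sorted fasting at ZT14, 65 instead of 40 and 48 instead of 17 for refeeding at ZT2 and ZT14, 21 (1 higher and 20 lower) instead of 0 for refed minus ad libitum at ZT2, and 5, all lower, instead of 0 for RiboTag fasting at ZT14. Refed minus ad libitum at ZT2 gave 1 with upper quartile rescaling. RiboTag fasting at ZT2 gave 1 as reported, 2 with log2(value + 5), 0 with no filter, 28 by edgeR, 4 with TMM and 4 with upper quartile rescaling, 5 with the length and GC correction (3 higher and 2 lower) and 0 without the pair. The interaction at ZT2 gave 7 instead of 64 without the pair. The cause of these moves was not tested, and the shares of all genes called under these settings are not given here.

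Leaving out 1 library at a time gave ranges of 35 to 64 for RiboTag minus sorted at ad libitum ZT14, 5 to 24 at fasted ZT2 (24 without RiboTag replicate 1) and 31 to 74 at fasted ZT14. The ranges were 25 to 72 for the interaction at ZT2, 17 to 42 for sorted fasting at ZT14, 26 to 45 and 6 to 21 for refeeding at ZT2 and ZT14, 0 to 1 for refed minus ad libitum at ZT2 and 0 to 27 for RiboTag fasting at ZT2.

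Same-numbered libraries had correlations of their deviations from -0.44 to 0.455. All were positive between times in control leptin libraries (0.127 to 0.407), where the block called 0 as well. They were also all positive for leptin minus PBS at ZT14 in controls (0.048 to 0.399) and knockouts (0.054 to 0.155). The same held for RiboTag minus sorted at fasted ZT2 (0.002 to 0.278). In the other comparisons some or all were negative. Libraries of different number were not examined in this way, so whether the numbers pair libraries is not settled. With the replicate number as a block the count went from 40 to 26 for refeeding at ZT2, from 17 to 10 at ZT14 and from 1 to 3 for RiboTag fasting at ZT2. TMM rescaling moved the median of all genes by -0.122 for RiboTag minus sorted at ad libitum ZT2 and by 0.114 for RiboTag fasting at ZT2. Group sizes of 2 to 8 limit what could be seen, and genes at few counts such as Rpl26 and Rpl10l are limited by depth.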
